A study of Mus musculus with 8 samples.

Results

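Suz12, Rcor2, Hdac9, Nr6a1 and Lin28a are 5 genes that restrain transcription or hold cells in an early developmental state, and each was measured by 1 named probe set in forebrain from mouse embryos at E9.5. They were chosen from the authors' deposited list of probe sets that differed between VEGF120 and wild type forebrain, as the probe sets whose current symbol in that list is 1 of these 5 (Lin28 being the older symbol of Lin28a). They are thus 5 of the 247 genes that the list names with a single symbol, 5 of its 330 probe sets, and 5 of 45037 probe sets on the array. Any other probe sets of these genes on the array could not be identified, because names came only from that list. All 8 arrays carried RNA of forebrain dissected at E9.5 from embryos of C57Bl/6 genetic background, hybridised to an Affymetrix mouse GeneChip. The 4 wild type arrays came from wild type embryos. The 4 VEGF120 arrays came from embryos with a cDNA knock-in at the VEGF-A gene after which the vascular growth factor VEGF-A is made only as VEGF120, labelled as VEGF164 deficient. The labels name no Cre line and no cell type to which the allele is limited. The labels do not say whether an array stands for 1 embryo, a litter or a pool, so the spread between arrays may be technical in part, and in a dissected tissue fewer cells of a type cannot be told apart from less RNA per cell.

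The 5 genes act at different steps of gene regulation. SUZ12 is a core subunit of Polycomb repressive complex 2 (PRC2), which methylates lysine 27 of histone H3 and keeps developmental genes silent until they are needed. RCOR2 belongs to the CoREST family, scaffolds that join the histone demethylase LSD1 and histone deacetylases to DNA-bound factors such as REST, the repressor of neuronal genes. HDAC9 is a class IIa histone deacetylase that binds and restrains MEF2 transcription factors. NR6A1, also called germ cell nuclear factor, is an orphan nuclear receptor that silences the pluripotency gene Pou5f1 as the mouse embryo passes gastrulation. LIN28A is an RNA-binding protein of stem cells and early progenitors that blocks the maturation of let-7 microRNAs, and its level falls as the neural tube matures.

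Sequences are shown for the genes with a single listed promoter, because base composition was a feature that the choice of genes did not use, and for let-7, because it is the RNA on which LIN28A acts. Promoters were available from RefSeq (build GRCm38.p6) for all 5 genes, with 1 start each for Suz12, Rcor2 and Lin28a and 2 each for Hdac9 and Nr6a1. The 250 bases before the start are printed 5′ to 3′, Suz12 from chr11:79992856-79993105 (plus strand), Rcor2 from chr19:7267144-7267393 (plus strand) and Lin28a from chr4:134018817-134019066 (minus strand). Capitals mark the GC box (GGGCGG), the CCAAT box (CCAAT), the core of the hypoxia response element (ACGTG), the nuclear receptor half-site (AGGTCA), the TATA box (TATAAA), the cyclic AMP response element (TGACGTCA) and the MEF2 site, each on either strand; the printed bases of Lin28a hold none, and its GC box lies past the start.
Suz12: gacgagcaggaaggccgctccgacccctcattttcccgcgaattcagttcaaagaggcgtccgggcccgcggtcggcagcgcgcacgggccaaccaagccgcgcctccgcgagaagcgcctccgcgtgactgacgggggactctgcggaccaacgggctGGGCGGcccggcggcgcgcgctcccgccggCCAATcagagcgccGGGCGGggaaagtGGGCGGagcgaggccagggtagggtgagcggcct
Rcor2: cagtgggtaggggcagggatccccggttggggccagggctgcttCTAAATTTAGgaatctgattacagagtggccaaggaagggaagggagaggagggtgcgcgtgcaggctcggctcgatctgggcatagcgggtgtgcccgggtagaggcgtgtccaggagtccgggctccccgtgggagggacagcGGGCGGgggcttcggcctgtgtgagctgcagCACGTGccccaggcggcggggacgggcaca
Lin28a: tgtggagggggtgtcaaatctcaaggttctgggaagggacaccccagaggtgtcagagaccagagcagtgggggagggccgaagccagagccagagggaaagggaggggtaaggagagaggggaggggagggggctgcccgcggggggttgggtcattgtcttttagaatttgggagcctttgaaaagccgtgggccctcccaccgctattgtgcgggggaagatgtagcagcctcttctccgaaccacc

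In the windows of 300 bases, which run 50 bases past the start, the promoters differed widely in base composition. The Suz12 window was 71.0% G and C with 41 CpG dinucleotides, at percentile 96.5 of 32851 mouse promoters for CpG. The Rcor2 window was 67.3% G and C with 21 CpG (percentile 75.2), and that of Lin28a 63.3% with 10 CpG (percentile 56.5). The windows of the genes with 2 listed starts were poorer in G and C than the median promoter, which had 52.7%: Hdac9 had 45.3% with 3 CpG and 44.0% with 0 CpG, and Nr6a1 had 42.3% at both starts with 8 and 10 CpG. The plot of promoter composition sets these windows against all promoters.

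**Figure D1:**
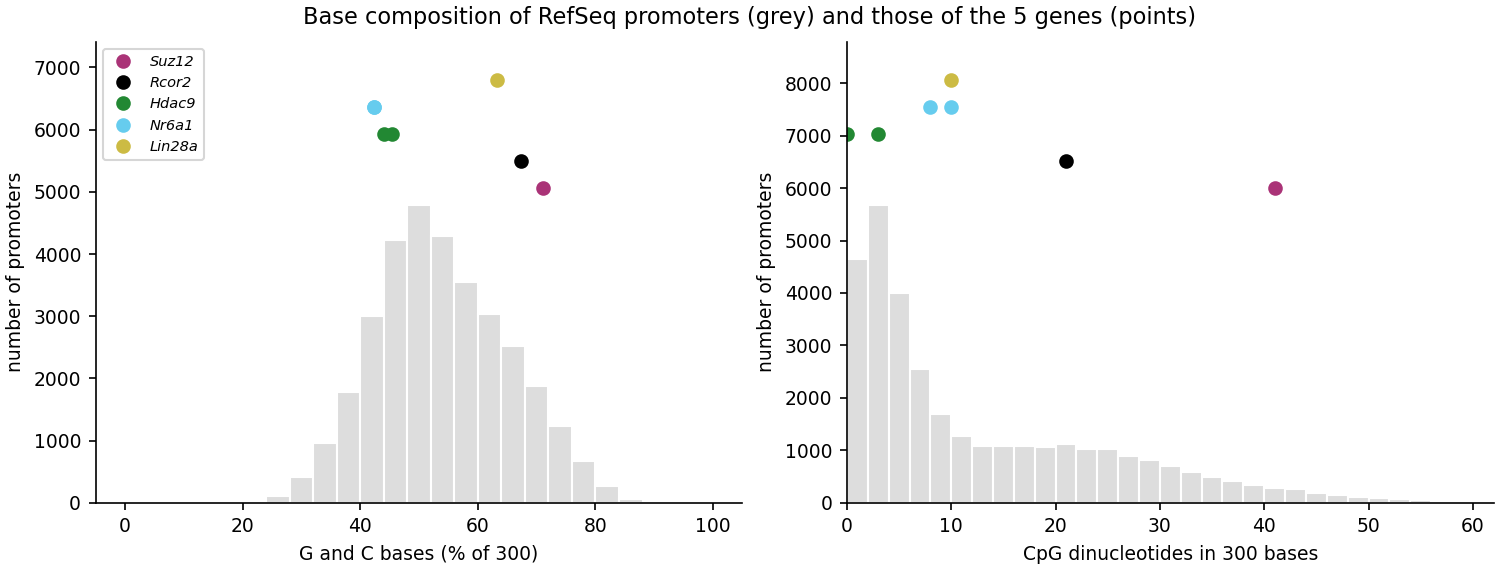
Share of G and C bases (left) and number of CpG dinucleotides (right) in the 300-base promoter windows of RefSeq (grey bars, number of promoters per bin), with the windows of the 5 genes as points above the bars, whose height only separates the genes. The Suz12, Rcor2 and Lin28a points lie at 63.3% G and C or above, and the Hdac9 and Nr6a1 points at 45.3% or below.

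No motif was present in the windows of all 5 genes. The GC box was found at 3 places in the Suz12 window and at 1 place each in those of Rcor2 and Lin28a, and 35.7% of all promoters hold it. The Suz12 window also held 1 CCAAT box (37.4% of promoters). The ACGTG letters stood at 1 place of the Rcor2 window, in a palindrome that reads them on both strands (19.6% of promoters), and the MEF2 site at 1 place there (3.19% of promoters). The nuclear receptor half-site was found at 2 places of one Nr6a1 window and at 1 place of one Hdac9 window (16.3% of promoters). The other Hdac9 start held a TATA box (13.6%) and the other Nr6a1 start a cyclic AMP response element (1.79%), which lies past the start. These matches are letters in a window and say nothing of factor binding.

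LIN28A recognises the letters GGAG in the loop of let-7 precursors through its zinc knuckles. The mature forms of let-7a and let-7g from RefSeq (GRCm38.p6) are printed with the seed, bases 2 to 8, in capitals, and the let-7g hairpin with the seed and GGAG in capitals.
let-7a-5p (chr13:48538239-48538260, minus strand): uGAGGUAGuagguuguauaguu
let-7g-5p (chr9:106178846-106178867, plus strand): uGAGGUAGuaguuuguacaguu
let-7g hairpin: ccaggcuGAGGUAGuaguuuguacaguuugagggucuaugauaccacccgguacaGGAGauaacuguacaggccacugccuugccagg
This seed was carried by 13 hairpins of the RefSeq table, 12 of them with the mature form on the 5′ arm, and 8 of these 12 hold GGAG between the mature form and the hairpin's 3′ end. Among all 814 mature forms on the 5′ arm of a hairpin, 19.0% have those letters there. The arrays gave no let-7 level.

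Each value below is a MAS5 signal, a linear brightness that summarises the probes of a probe set. Differences were taken on a log2(signal + 16) scale as VEGF120 minus wild type. The SE of a difference comes from the limma fit named below, which draws each variance toward that of probe sets of like brightness. It is smaller than the printed SDs alone give for Suz12, Rcor2, Nr6a1 and Lin28a, and larger for Hdac9. The authors' list was itself drawn from this contrast, with unadjusted p-values up to 0.05 and folds from 1.5 upward per the file headers, so the genotype values are given as a description and without a test. Rcor2, at 1.51-fold in the authors' deposited table, lay just inside that fold limit, and Suz12, with a p of 0.0497 over 3 groups of arrays in the same table, just inside the p limit; the nearest genes outside are not named in the sources used here. All 5 probe sets passed a brightness filter at a signal of 36.9, the 40th percentile, but Suz12, at percentile 40.3, passed only through VEGF120: its mean log2 signal was 5.19 in wild type, below the limit, and 6.29 in VEGF120. With 1 in place of 16 added to the signal Suz12 fell below the filter and was not tested. A limma fit over the 27022 probe sets that passed called 0 of the 5 at an adjusted p under 0.05, against 0% of all probe sets. At an unadjusted p under 0.05 it held 3 of the 5, against 9.76% of all probe sets: 2 were higher, against 6.34%, and 1 lower, against 3.42%; on all 5 the arrays of the genotypes overlapped, as they did not on 5% of all probe sets. Because the genes were selected on this contrast, nothing follows from these counts.

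Suz12 and Rcor2 read higher in VEGF120. Suz12 had signals of 10.4, 18.0, 56.1 and 11.1 on wild type replicates 1 to 4 and of 40.7, 22.8, 104 and 127 on VEGF120 replicates 1 to 4. Wild type replicate 3 exceeded VEGF120 replicates 1 and 2, and VEGF120 replicates 3 and 4 stood above every wild type array. Mean log2 signals of Suz12 were 5.19 ± 0.68 for the wild type arrays against 6.29 ± 0.89 for the VEGF120 arrays (SD, n = 4 per genotype), which differ by 1.11 ± 0.44 (SE). Suz12 varied more between arrays of one genotype than 98.9% of the tested probe sets. Its values lie near the dim end of the array, and the difference was 1.62 with 1 added to the signal and 0.60 with 64 added. It was 0.68 without both replicates numbered 4.

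Rcor2 had signals of 682, 650, 635 and 618 on wild type replicates 1 to 4 and of 669, 1646, 1291 and 894 on VEGF120 replicates 1 to 4. The wild type arrays were nearly alike, 3 VEGF120 arrays stood above all of them, and VEGF120 replicate 1 fell inside the wild type range. Mean log2 signals of Rcor2 were 9.37 ± 0.06 for the wild type arrays against 10.08 ± 0.56 for the VEGF120 arrays (SD, n = 4 per genotype), which differ by 0.71 ± 0.21 (SE), that is 1.63-fold. The SD of Rcor2 was thus 9.47 times as large in VEGF120 as in wild type, a ratio above that of 99.7% of the tested probe sets. Without VEGF120 replicate 1 the difference was 0.92, and without VEGF120 replicate 2 it was 0.50.

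Hdac9 and Nr6a1 read lower in VEGF120. Hdac9 had signals of 64.4, 74.7, 92.8 and 46.4 on wild type replicates 1 to 4 and of 46.2, 62.3, 26.0 and 38.8 on VEGF120 replicates 1 to 4. VEGF120 replicates 1, 3 and 4 lay below every wild type array, replicate 1 only just, and VEGF120 replicate 2 lay inside the wild type range. Mean log2 signals of Hdac9 were 6.39 ± 0.34 for the wild type arrays against 5.85 ± 0.38 for the VEGF120 arrays (SD, n = 4 per genotype), which differ by −0.54 ± 0.26 (SE). Hdac9 was a dim probe set too, at brightness percentile 48.6, and the difference was −0.69 with 1 added and −0.31 with 64 added.

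Nr6a1 had signals of 140, 129, 143 and 245 on wild type replicates 1 to 4 and of 110, 152, 87.8 and 95.9 on VEGF120 replicates 1 to 4. VEGF120 replicate 2 exceeded 3 of the wild type arrays, and the other VEGF120 arrays stood below all wild type arrays. Mean log2 signals of Nr6a1 were 7.45 ± 0.39 for the wild type arrays against 6.97 ± 0.31 for the VEGF120 arrays (SD, n = 4 per genotype), which differ by −0.49 ± 0.22 (SE). Wild type replicate 4 was the brightest array for Nr6a1: without it the difference was −0.29, and without both replicates numbered 4 it was −0.24.

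Lin28a differed little between the genotypes in these signals. Its signals were 390, 303, 308 and 298 on wild type replicates 1 to 4 and 341, 242, 267 and 388 on VEGF120 replicates 1 to 4. Each genotype had an array near 390, and 2 VEGF120 arrays lay below the wild type range. Mean log2 signals of Lin28a were 8.41 ± 0.18 for the wild type arrays against 8.32 ± 0.30 for the VEGF120 arrays (SD, n = 4 per genotype), which differ by −0.08 ± 0.16 (SE). That difference was smaller than the spread between arrays, and its sign turned without wild type replicate 1 (0.0057) or without VEGF120 replicate 2 (0.022).

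**Figure D2:**
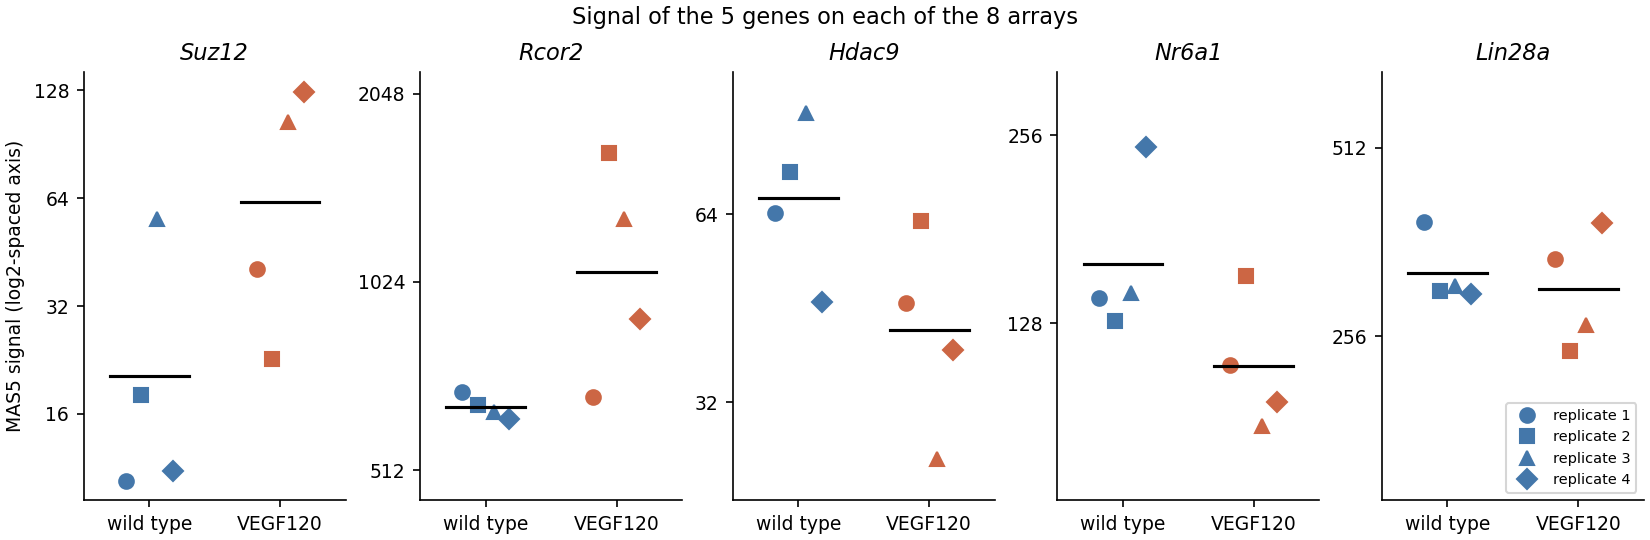
MAS5 signal (vertical, log2-spaced axis with its own range in each panel) of the 5 genes on the 4 wild type (blue) and 4 VEGF120 (orange) arrays, with the marker shape giving the replicate number and the black line the group mean of log2(signal + 16) turned back to signal. The genotypes overlap in all 5 panels, Rcor2 has its 4 wild type arrays between 618 and 682, and Lin28a has nearly level means.

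The authors' deposited table rests on another summary of the arrays, PLIER with quantile normalization, and its group means can be set beside the MAS5 differences. Its groups carry codes that no sample label explains, and they were taken as the genotypes from the order in the heading of the enrichment output, so the signs that follow rest on that reading. On it, direction was shared by 5 of 5 genes. The genes were selected for the authors' difference in the same contrast, so this sharing is no independent support. For Lin28a the MAS5 sign turned when some single arrays were left out. For Rcor2 the authors' deposited table gives mean log2 signals of 8.95 in wild type and 9.54 in VEGF120, a difference of 0.59 against 0.71 in MAS5. For Suz12 its difference is 0.66 against 1.11, for Hdac9 −0.76 against −0.54 and for Nr6a1 −0.69 against −0.49. Means of Lin28a in the authors' deposited table were 7.42 and 6.59, a difference of −0.83 or 1.78-fold, where MAS5 gave −0.08. The summaries thus differed by 0.75 on the log2 scale for Lin28a and by 0.11 to 0.45 for the other 4 genes. Which gene differed most depends on the value added to the MAS5 signal before log2. With 1 added, MAS5 gave 1.62 for Suz12, further from the authors' 0.66 than −0.09 for Lin28a was from −0.83. With 64 added, Lin28a at −0.07 differed most, with Suz12 at 0.60. The cause of the differences between the summaries was not tested.

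**Figure D3:**
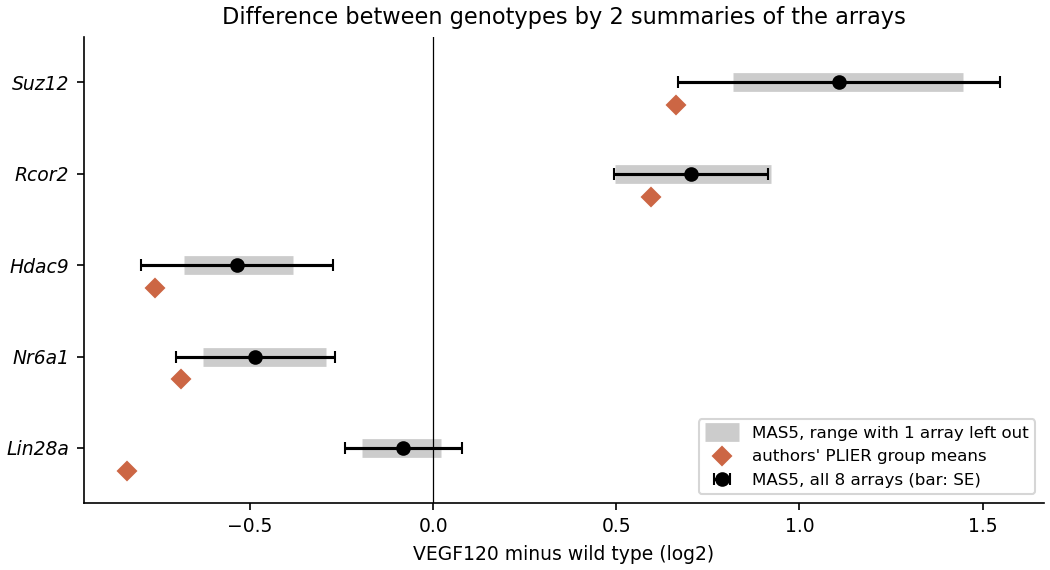
Difference between genotypes (horizontal, VEGF120 minus wild type, log2) for each of the 5 genes in MAS5 signal (black points, bars give the SE; grey bands give the range with 1 array left out) and from the group means in the authors' deposited table (orange diamonds, no error given). The SE is that of the limma fit, not of the arrays of 1 gene alone. The diamond of Lin28a, at −0.83, lies far from its MAS5 point at −0.08, and all 5 diamonds lie on the same side of 0 as their points.

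Deviations from the genotype means of log2 signal, 8 arrays in all, gave a Pearson correlation between −0.68 (Rcor2 with Lin28a, Spearman −0.64) and 0.25 (Suz12 with Lin28a, Spearman 0.29) over the 10 pairs of genes. These coefficients are a description, since the points share arrays and their scaling and only 8 are available. VEGF120 replicate 2 was the highest VEGF120 array for Rcor2, Hdac9 and Nr6a1 and the lowest for Suz12 and Lin28a.

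The named genes whose deviations were most like those of each member were sought among the 97 other named probe sets above the filter, all of them from the authors' list. The closest likeness by Pearson coefficient was that of Rcor2 with Bak1, a pro-apoptotic protein of the outer mitochondrial membrane (Pearson 0.90, Spearman 0.83, 8 arrays). Rcor2 deviated from its genotype mean by −0.06 to 0.08 on the wild type arrays and −0.65 to 0.62 on the VEGF120 arrays. Its Pearson coefficients thus rest mostly on the VEGF120 arrays. Bak1 had signals of 149, 132, 126 and 129 on the wild type arrays and of 131, 421, 366 and 311 on the VEGF120 arrays, so that VEGF120 replicate 1 again lay inside the wild type range and the other VEGF120 arrays far above it. Of all tested probe sets, 0.418% had a higher Pearson coefficient with Rcor2 than Bak1 had. Second was Myo5b, a myosin motor of vesicle transport (Pearson 0.88, Spearman 0.67), which read lower in VEGF120 by −0.41 ± 0.19 (SE) and so shares the deviations of Rcor2 but not its direction.

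**Figure D4:**
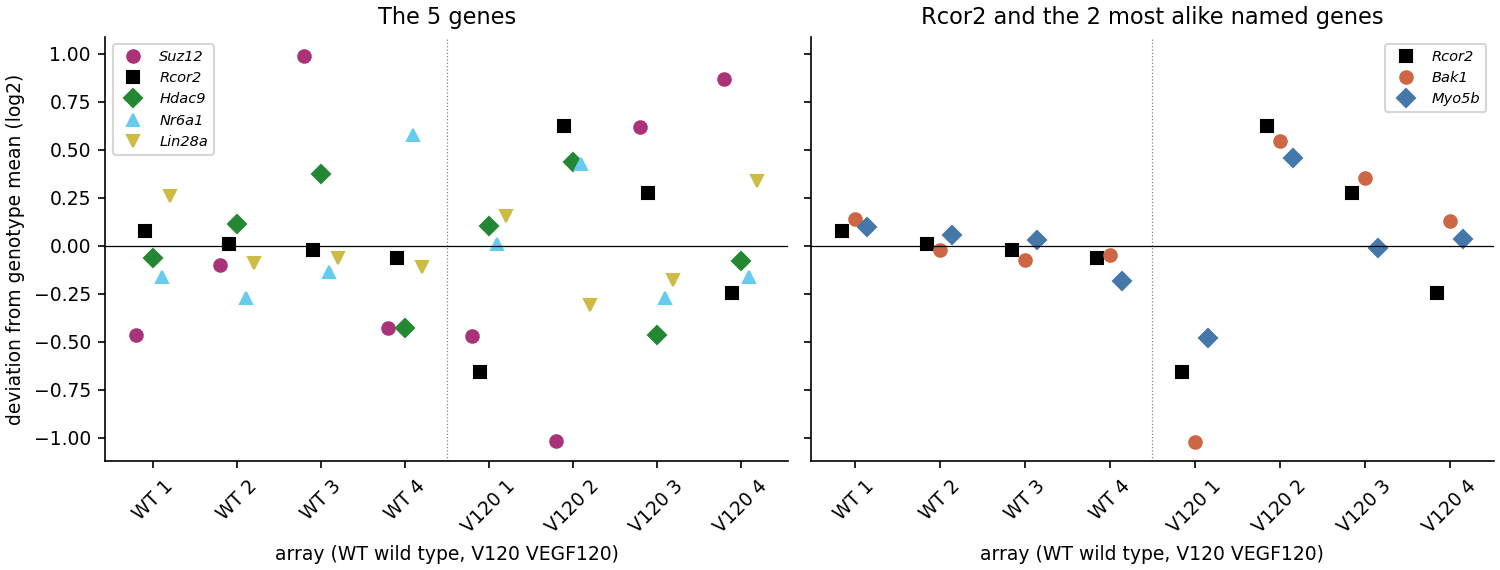
Deviation of log2 signal from the mean of its genotype (vertical) on each of the 8 arrays (horizontal), for the 5 genes (left) and for Rcor2 with the 2 named genes most like it by Pearson coefficient (right). Rcor2 and Bak1 are lowest on VEGF120 replicate 1 (−0.65 and −1.02) and highest on VEGF120 replicate 2 (0.62 and 0.55), while the 5 genes on the left scatter in different orders.

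The likeness was weaker for the other members by Pearson coefficient, but not for all of them by Spearman coefficient. Lin28a was most like Cyp20a1 (Pearson 0.79, Spearman 0.83) and Hbs1l (0.77, 0.81). Nr6a1 was most like Pam, an enzyme that amidates peptide hormones (0.79, 0.62), and Trim13 (0.72, 0.79). Hdac9 was most like Vmac (0.75, 0.86) and Zfp709 (0.66, 0.55), and Suz12 most like Marf1 (0.71, 0.57) and Defa3 (0.64, 0.60). Of all tested probe sets, 1.81% had a higher Pearson coefficient with Hdac9 than Vmac had, and 5.23% a higher one with Suz12 than Defa3 had.

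The partners of the 5 proteins could be followed only as far as the deposited list names them. Of the 126 other genes in the lists drawn up for PRC2, PRC1, CoREST and REST, histone deacetylases, class IIa partners, NuRD and Sin3, the LIN28 and let-7 axis, pluripotency, nuclear receptors and neuronal REST targets, 0 had a current symbol there, and their levels are not analysed here. Suz12 was the 1 named gene of 11 in the PRC2 list, Rcor2 the 1 of 13 in the CoREST list, Hdac9 the 1 of 11 deacetylases and Lin28a the 1 of 18 in the let-7 list. Nr6a1 was the 1 of 17 in the pluripotency list and the 1 of 12 in the nuclear receptor list. Probe sets that the list once named Ncor1 and Igf2bp3 have lost those symbols in its current column and are not taken as these genes.

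Of the 75 annotation clusters in the authors' deposited enrichment output, 14 hold at least 1 of the 5 genes and 2 hold all 5. The cluster of nucleoplasm and organelle lumen terms that holds them has a score of 0.771 and 17 probe sets. The other, cluster 2, gathers 20 probe sets under 11 terms for negative regulators of gene expression and has a score of 3.26. Suz12, Hdac9 and Nr6a1 carry all 11 terms, Rcor2 carries 8 and Lin28a 2, those for gene expression and for macromolecule metabolism. The other 15 probe sets of the cluster hold 9 above the brightness filter, 5 higher and 4 lower in VEGF120, with log2 differences from −1.03 to 1.05. The cluster was built from genes selected for a difference on these arrays, so its directions are no support for those of the 5.

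Properties of the arrays moved with genotype to some extent. The wild type arrays had median signals of 56.1 to 59.6 and the VEGF120 arrays of 62.3 to 68.5, although every array had been scaled to the same trimmed mean. The medians differ by 0.12 on the log2 scale, and after centring the arrays on them the differences were 0.98 for Suz12, 0.58 for Rcor2, −0.66 for Hdac9, −0.61 for Nr6a1 and −0.20 for Lin28a. The log2 ratio of 3′ to 5′ signal for β-actin, a measure of RNA integrity and labelling, was highest on VEGF120 replicate 4 (0.69). It was 0.30 to 0.43 on the other 7 arrays. The same ratio for Gapdh was also highest on VEGF120 replicate 4 (−0.04), against −0.37 to −0.26 on the other 7 arrays. VEGF120 replicate 4 had the highest median signal too, at 68.5. In the head mesenchyme and neural crest list 2 of 6 markers were named, and both read higher in VEGF120. Prrx1 differed by 0.76 ± 0.16 (SE, log2), with signals of 331 to 441 on wild type arrays and 556 to 903 on VEGF120 arrays. Alx1 differed by 1.05 ± 0.25, with 95.3 to 245 against 240 to 406. Names came only from the authors' list, itself selected for a difference in this contrast. That a named marker differs was thus fixed in advance and says nothing of the tissue. The other 4 markers of the head mesenchyme and neural crest list and the 9 forebrain markers are not in the authors' list and have no name here. The same holds for those of hindbrain, neurons, endothelium, erythroid cells, surface ectoderm and macrophages, so the tissue label was not checked. The part that these measures had in the values of the 5 genes was not tested.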

How the data were processed

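RNA from E9.5 forebrain of 4 wild type and 4 VEGF120 arrays was compared, with groups and replicate numbers from the labels. Each array's deposited values are MAS5 intensities, linear and 1 to a probe set; the submitters' processing notes name Affymetrix Expression Console. All arrays share a trimmed mean of 250.0, leaving out 2% at each end. The authors' table of 330 probe sets gives an unsigned ratio (fold change), unadjusted p-values and group mean log2 signals from PLIER with quantile normalization, per the file headers; tool versions and build are not given in the sources used. Code DDA was read as wild type and DDB as VEGF120, the order in which the heading of the deposited enrichment output names the genotypes; no label pairs them, and the sign of each authors' difference rests on it. The cluster score is the authors' own. That table's 12 per-array columns match no sample label and were not used, and its group DDC is not analysed here.

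Gene names came from that table (251 probe sets with 1 symbol, 219 with an Entrez identifier in RefSeq, assembly GRCm38.p6), so the test of the fixed gene lists could not be made and they are described by counts. The members and lists were chosen with earlier results of these data known. The naming rule takes all 5 members, listed genes past the threshold, and for each member the 2 named probe sets with the highest correlation of within-genotype deviations. Signals were taken as log2(value + 16), and 27022 probe sets were tested after removal of 64 controls and of those whose mean log2 signal lay under the 40th percentile. limma 3.58.1 in R 4.3.3 (lmFit, eBayes with intensity trend) compared the genotypes with Benjamini-Hochberg adjustment, and the fit was tested on simulated arrays. It gave 0 calls at an adjusted p under 0.05 (smallest 0.465) and 2638 at an unadjusted p under 0.05. The labels do not say whether replicate numbers pair the arrays, and no pairing was used in the main fit. No 2 arrays shared over 0.0044% of their values, and each of the 8 counts as a sample. The number of arrays limits the precision. Alternatives changed the added value, scaling, filter, variance model, block, test and arrays included; the filter on the mean linear signal was added after seeing the data. Figures used matplotlib 3.10.9 in Python 3.11.15.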

Additional observations from a re-analysis of the deposited data

Results flagged for a closer look

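A single array lay far from its 3 companions in 2 of the 16 sets of 4 arrays looked at (the 5 genes, median signal and the 3′ to 5′ ratios of β-actin and Gapdh, per genotype), and chance alone flags about 0.8. For Nr6a1 it was wild type replicate 4, at a log2 signal of 8.03 where its companions had 7.18 to 7.32. For Lin28a it was wild type replicate 1, at 8.67 where its companions had 8.30 to 8.34.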

How the results depend on the processing

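Of 65 values of the 5 genes under 13 alternatives each, 63 kept their direction; the other 2 were Lin28a without wild type replicate 1, at 0.0057, and without VEGF120 replicate 2, at 0.022. With 1 array left out the difference ranged from 0.82 to 1.45 for Suz12, 0.50 to 0.92 for Rcor2, −0.68 to −0.38 for Hdac9, −0.63 to −0.29 for Nr6a1 and −0.19 to 0.022 for Lin28a. Direction is no measure of robustness here, since the genes were selected for it. Adjusted calls stayed at 0 under the 20 alternatives, in limma and the methods' unpaired test, apart from 1 call when VEGF120 replicate 1 was dropped (range 0 to 1 on dropping single arrays). Probe sets with unadjusted p under 0.05 numbered 2638, and 1624 to 3701 under the alternatives: 1653 to 3225 on dropping single arrays, lowest without wild type replicate 3, 1624 without both replicates numbered 4 and 3701 after median centring. Higher and lower counts, 1714 and 924, were 602 and 3099 after median centring, 1165 and 1135 after quantile normalization, and 1135 and 489 without both replicates numbered 4. On dropping single arrays the higher count was 1144 to 1939 and the lower count 507 to 1286, with 507 after dropping wild type replicate 4 and 509 after dropping replicate 3, and the higher count 1137 with the 60th percentile filter, which tests fewer probe sets. What caused the remaining shifts was not tested. Deviations of same-numbered arrays correlated at −0.13, −0.02, 0.11 and −0.06, which gave no sign of pairing by replicate number. With the replicate block in limma 0 probe sets were called and 2358 had an unadjusted p under 0.05. The alternatives planned for the pathway lists were not run, because no gene of those lists other than the 5 was named. Depth of signal limits Suz12 and Hdac9 most, whose probe sets lie near the brightness filter.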
